A study of Ovis aries with 2 samples.

Results

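Endothelial cells of lamb skin were taken as the cells with a UMI for at least 3 of 6 genes, PECAM1, CDH5, CLDN5, EMCN, EGFL7 and KDR, and 267 of 14037 cells met this rule. The shares given here are of the cells in the deposited table, which are fewer than the study describes. They come from single-cell RNA-seq of skin from the body side of Hu sheep lambs at 3 days of age, in which a UMI (unique molecular identifier) marks 1 captured RNA molecule. Skin of 3 straight wool lambs was pooled into 1 library, and skin of 3 curly wool lambs, whose phenotype is given as waved wool, was pooled into 1 other library. Each library combines a suspension of isolated hair follicles with one of the entire skin. With 1 library per wool type there was no spread between lambs, so the wool types could not be tested against each other, and every interval given here is an exact 95% interval that covers counting error only.

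Endothelial cells line blood and lymphatic vessels. They are held together by VE-cadherin (CDH5), PECAM1 and claudin-5 (CLDN5), receive VEGF signals through KDR and FLT1, and keep their identity through ETS and SOX transcription factors such as ERG, FLI1 and SOX18. Arterial cells carry gap junction connexins and Notch targets, veins carry receptors that bring leukocytes to the vessel wall, capillaries exchange lipids and solutes, and lymphatic vessels are known for PROX1, LYVE1 and CCL21. In skin, the vessels supply the dermis and the hair follicle.

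The straight library held 156 endothelial cells among 6452 cells, a share of 2.42% (2.06 to 2.82%). The curly library held 111 among 7585, a share of 1.46% (1.21 to 1.76%). Other dermal cells were also a smaller share of the curly library, since cells with at least 3 of 6 fibroblast genes were 4.91% of all straight cells and 1.61% of all curly cells, and cells with at least 3 of 6 leukocyte genes 1.98% and 0.567%. Cells with at least 3 of 6 perivascular genes made up 0.372% and 0.198%. The mix of follicle and whole skin suspensions also sets these shares, and it cannot be told apart from wool type. The endothelial cells had a median of 6611 UMIs in straight (515 to 27784) and 5524 UMIs in curly skin (561 to 25429), against 7386 and 7534.5 UMIs in the other cells. They held 1282729 and 776804 UMIs in all, so that 3 UMIs, the limit used for a gene that was not seen, are worth 2.34 (straight) and 3.86 CPM (curly) in the endothelial cells. CPM is the number of UMIs of a gene per 1000000 UMIs of the group of cells. In all, 70 cell barcodes were shared by both libraries, of which 2 belonged to an endothelial cell in either and 0 in both.

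The genes of the rule chose the cells, so their levels are a description. PECAM1 had a UMI in 151 of the 156 straight cells and in 109 of the 111 curly cells, CDH5 in 112 and 62, CLDN5 in 95 and 96, EMCN in 133 and 77, EGFL7 in 98 and 72, and KDR in 95 and 52. PECAM1 had 1342.5 (straight) and 1345 CPM (curly) in the endothelial cells. CLDN5 was the one gene of the rule that was over 2-fold apart, with 580 and 1238 CPM, a log2 ratio of curly over straight of 1.09 (0.95 to 1.23). EMCN, an endothelial sialomucin, had 468 and 309 CPM. All 6 genes had a UMI in 27 straight and 16 curly cells.

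Just inside the rule, 42 straight and 34 curly cells had exactly 3 of the 6 genes. Just outside it, 50 and 45 cells had 2. Over 34 other endothelial genes, the summed level was 10611.5 (straight) and 7828 CPM (curly) in the cells with 3 genes of the rule, and 4423 and 3802 CPM in cells with 2. Cells with 1 gene had 528 and 190 CPM, and cells with none 241 and 137 CPM. The cells with 2 genes thus lay between the endothelial cells and the rest. Keratinocyte genes summed to 6978 (straight) and 23076 CPM (curly) in the cells with 2 genes, and to 3333 and 4433 CPM in cells with 3.

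**Figure D1:**
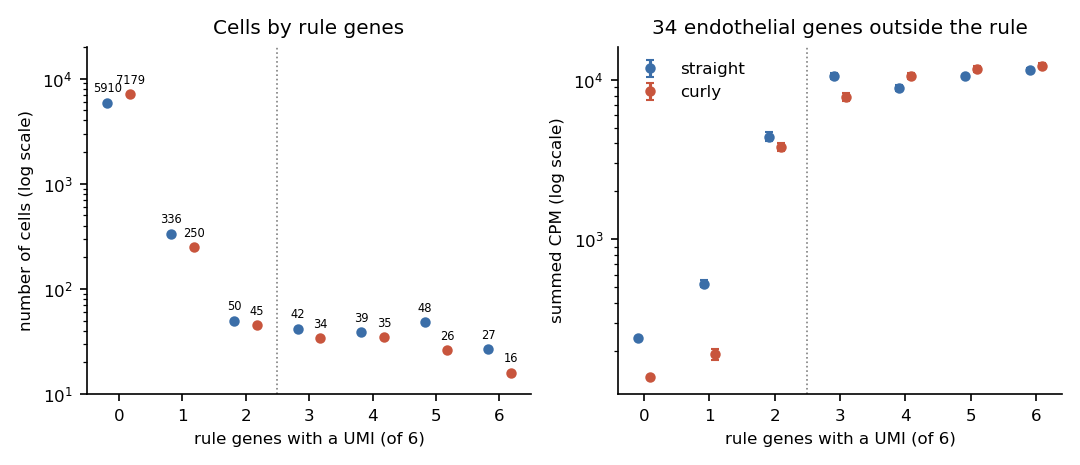
Left, the number of cells (log scale) by how many of the 6 rule genes had a UMI, in straight (blue) and curly (red) skin. Right, the summed CPM (log scale) of the 34 endothelial genes outside the rule in the same cells, with exact Poisson intervals, which were between 7828 and 12328 CPM on the right of the dotted line (3 or more rule genes) and 4423 CPM or less on its left.

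Endothelial genes that the rule did not use were also high in these cells. The list has 35 further endothelial genes, of which 34 were in the table, and 31 had at least 20 UMIs in the endothelial cells. All 31 were at least 2-fold higher than in the other cells in both libraries, and 30 at least 10-fold, against 15.2% and 4.47% of all 6961 genes with at least 20 UMIs. CD34, a surface sialomucin, had 331 (straight) and 234 CPM (curly) in the endothelial cells, and 2.93 and 2.64 CPM in the other cells. VWF, the clotting factor stored in endothelial granules, had 291 and 238 CPM against 1.31 and 1.17 CPM. ECSCR had 898 and 821 CPM, against 2.01 and 1.94 CPM outside. RAMP2, part of the adrenomedullin receptor, had 2236 and 1923 CPM, with 73.1 and 64.8 CPM in the other cells. SOX18 was the gene of the 31 that stood out least, at 7.42-fold over the other straight cells and 27.2-fold over the other curly cells. Between the libraries, NOSTRIN, an adaptor that binds nitric oxide synthase, was the only 1 of the 31 that was 2-fold apart, with 32.7 CPM in straight cells and 116 CPM in curly cells, against 7.14% of all 6961 genes that were 2-fold higher in curly cells, and the median log2 ratio of the 31 was 0.13. SOX7, SOX17 and AQP1 had fewer than 20 UMIs in both libraries together, at 0 and 1, 7 and 4, and 11 and 5 UMIs. As these cells were chosen by genes that vary with them, and the 20 UMIs were counted in the same cells, the counts describe the gate and were not tested.

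**Figure D2:**
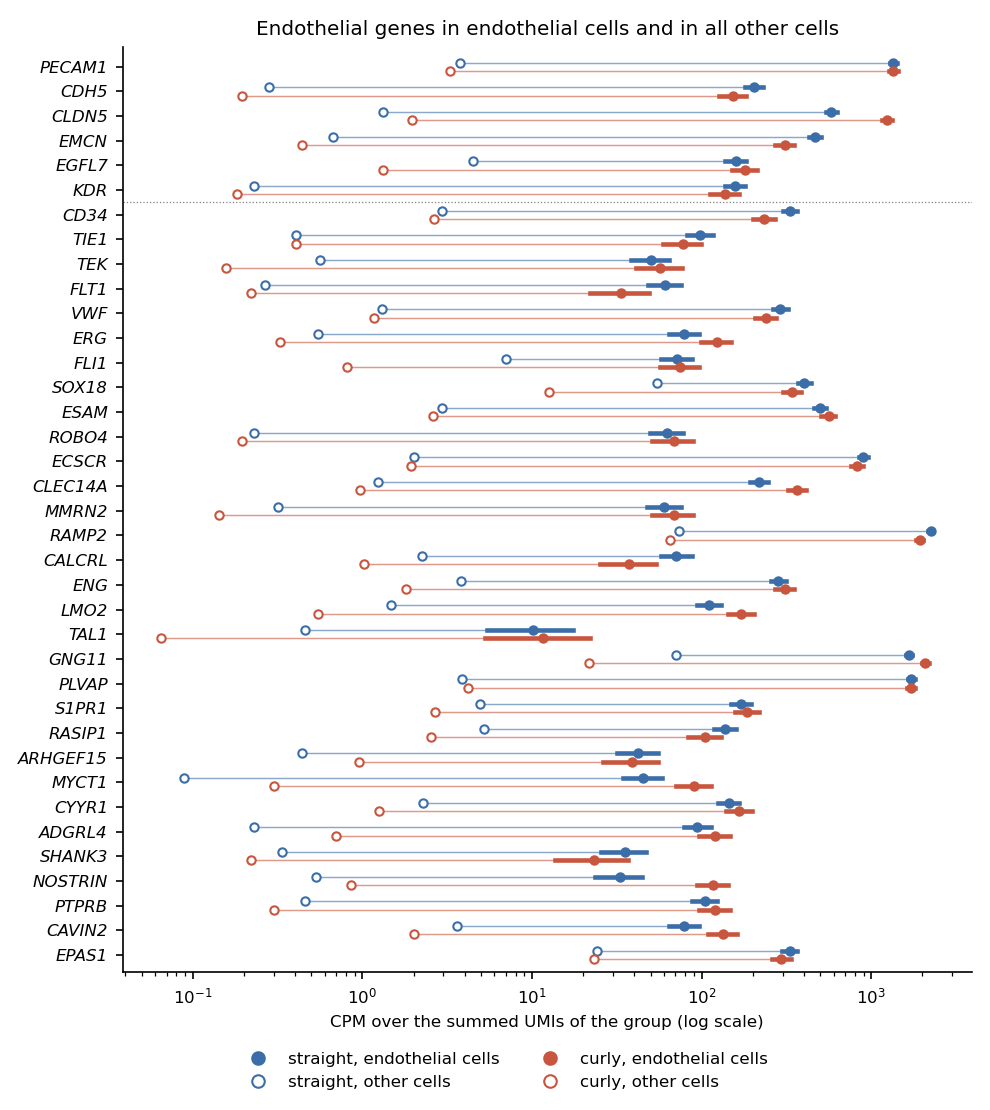
CPM (log scale) of the 6 rule genes, above the dotted line, and of the 31 other endothelial genes with at least 20 UMIs. Filled points are endothelial cells with exact Poisson intervals, open points all other cells, blue straight and red curly, and every filled point lies above its open point, from 7.42-fold for SOX18 in straight skin upwards.

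Some markers of the other cells of skin were at or near 0 in the gate, while other genes of their lists were not. Of 12 perivascular genes 5 had at least 20 UMIs in the endothelial cells, and of 10 fibroblast genes also 5. These included the perivascular genes TAGLN, with 48 (straight) and 199 UMIs (curly), and ACTA2, with 22 and 102 UMIs. The fibroblast gene DCN was also among them, with 93 and 16 UMIs in cluster 1 described below, 74.3% of these in 1 cell. Among perivascular genes, PDGFRB had 1 and 3 UMIs in straight and curly endothelial cells, RGS5 1 and 2 UMIs, and KCNJ8 and ABCC9 0 UMIs in both. PTPRC, the pan-leukocyte gene CD45, had 1 and 3 UMIs, and CD3E 0. The fibroblast genes COL1A2 and PDGFRA had 4 and 5 UMIs and 2 and 1 UMIs, and DPT 0. Summed over the lists, the perivascular genes were at 117 and 593 CPM in the endothelial cells and at 5910 and 7693 CPM in the perivascular gate, and the leukocyte genes at 249 and 498 CPM against 10822 and 6938 CPM in the leukocyte gate and 262 and 44.1 CPM in all other cells. Of the 6 leukocyte genes with at least 20 UMIs, LAPTM5 and CD68 were at least 2-fold over the other cells in both libraries, with LAPTM5 at 77.2 and 72.1 CPM against 19.0 and 4.01 CPM. SRGN, a granule proteoglycan, had 171 and 187 UMIs, of which 1 curly cell held 48.7% of the curly UMIs. The part of leukocyte RNA in the results was not tested. Fibroblast genes summed to 143 and 126 CPM, against 7284 and 13717 CPM in the fibroblast gate. Dermal papilla genes summed to 602 and 1151 CPM, against 2229 and 869 CPM in the other cells, with IGFBP3 at 479 and 1012 CPM of this. Erythroid genes had 1 UMI in all, melanocyte genes 12 and 2, and Schwann cell genes 5 and 6. Keratin RNA was present, with keratinocyte genes at 5573 and 6846 CPM, against 38730 and 38417 CPM in the other cells. The median endothelial cell had 0.213% of its UMIs in keratinocyte and hair keratin genes in straight and 0.358% in curly skin, and 5 cells in each library had over 2%. Only 1 curly cell also met the leukocyte gate and 1 straight cell the fibroblast gate, and 0 met the perivascular gate.

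The 15 named genes with the largest fold over the other cells, ranked in the library where that fold was lower, were CDH5, EMCN, KDR, MECOM, CCL14, USHBP1, CLEC1A, CLDN5, CD300LG, ECSCR, PLVAP, HOXD10, GPIHBP1, FAM110D and BTNL9. CDH5, EMCN, KDR and CLDN5 are genes of the rule, which set them high here. Every gene ranked had at least 100 UMIs in the endothelial cells, so the ranks are a description. For CDH5 the folds were 723 in straight and 778 in curly skin, and for BTNL9 388 and 371. PLVAP, which forms the diaphragms of fenestrae and caveolae, had 1723 (straight) and 1711 CPM (curly) in the endothelial cells. CCL14, a chemokine, had 1125 and 2921 CPM, and 2.12 and 5.89 CPM in the other cells. GPIHBP1, which holds lipoprotein lipase on capillaries, had 195 and 166 CPM, while LPL itself had 0 UMIs in both libraries. HOXD10, a homeobox factor, had 74.8 and 108 CPM, against 0.0706 and 0.273 CPM elsewhere. Of these 15, only CLDN5, CCL14 and MECOM were over 2-fold apart between the libraries, all higher in curly skin.

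Among the signalling genes of the vessel, all 7 receptor genes for VEGF and angiopoietins had a UMI, while 3 of their 8 ligand genes had none. KDR had 157 (straight) and 136 CPM (curly) in the endothelial cells, and FLT1, the other VEGF receptor of blood vessels, 60.8 and 33.5 CPM. FLT4, the receptor of VEGFC in lymphatic vessels, had 3 and 5 UMIs. TEK and TIE1, the angiopoietin receptors, had 49.9 and 56.6 CPM, and 98.2 and 77.2 CPM. Leaving out KDR, which the rule used, 5 receptor genes had at least 20 UMIs, counted in the endothelial cells, so their share is a description. Of these 5, 4 were at least 2-fold over the other cells in both libraries, against 15.2% of all 6961 genes, NRP2 being the exception. Between the libraries 0 of them were 2-fold apart, against 7.14% higher and 5.24% lower among all genes. Among ligands, ANGPT2, which endothelial cells make themselves, had 26.5 and 25.7 CPM, 57.8-fold and 61.8-fold over the other cells. VEGFC had 25.7 and 24.5 CPM, against 0.0882 and 0.039 CPM outside. ANGPT1, ANGPT4 and VEGFD had 0 UMIs in both libraries. VEGFA was higher in the other cells in straight skin, at 22.7 against 12.5 CPM, but lower in curly skin, at 15.8 against 34.8 CPM.

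In the Notch pathway, which marks arteries and restrains sprouting, DLL4 had 81.1 (straight) and 102 CPM (curly) in the endothelial cells, 164-fold and 279-fold over the other cells. NOTCH4 had 29.6 and 19.3 CPM, 9.17-fold and 5.10-fold higher. NOTCH1 had 46.0 and 43.8 CPM and lay at 44.6 and 44.9 CPM in the other cells, so it was not particular in level to the endothelial cells. HEY1, a Notch target, had 41.3 and 108 CPM, the one Notch gene of 9 that was 2-fold apart, which is near the 7.14% of all genes that were higher in curly cells. In the BMP and TGF-beta pathway, the endothelial receptors ENG and ACVRL1 had 283 and 308 CPM, and 96.7 and 79.8 CPM, at least 41.5-fold over the other cells. ID1, an early target of BMP signals, had 973 (straight) and 2021 CPM (curly) in the endothelial cells, a log2 ratio of 1.05 (0.95 to 1.16), while the other cells had 941 and 986 CPM.

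The transcription factors of the endothelium lay on both sides, with an interval above 0 for 3 and below 0 for 5, against 12.5% and 10.2% of all 6961 genes. Of 22 genes on the list, 17 had at least 20 UMIs, and 15 of these were at least 2-fold over the other cells in both libraries, against 15.2% of all genes. As the 20 UMIs were counted in the endothelial cells, this share is a description. The median of the log2 ratios (curly over straight) of the 17 genes was 0.09. That median had no stable sign, at -0.22 with cells of 2 or more rule genes and -0.17 with cells thinned to 2000 UMIs. In the thinned setting the rule was applied again to the thinned counts, which chose a smaller set of cells. ERG had 78.7 and 122 CPM, FLI1 71.7 and 74.7 CPM, and EPAS1, the hypoxia factor HIF-2 alpha, 330 and 295 CPM. BCL6B was the only one past 2-fold, with 49.9 (straight) and 20.6 CPM (curly), on 64 and 16 UMIs, against 5.24% of all genes that were lower. Of the genes for blood flow and clotting, KLF2, which responds to shear stress, had 533 and 691 CPM. NOS3, the endothelial nitric oxide synthase, had 70.9 and 34.8 CPM (log2 ratio -1.03, -1.71 to -0.40), and PLAT, the tissue plasminogen activator, 85.0 and 32.2 CPM (-1.40, -2.09 to -0.76). Of the 10 genes of this list with at least 20 UMIs, 2 were 2-fold lower and 0 higher, against 5.24% and 7.14% of all genes. Their median log2 ratio was -0.03, with 3 intervals above 0 and 3 below.

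Junction and caveola genes were close to level, with median log2 ratios of 0.003 over 13 junction genes and 0.13 over 7 genes of caveolae and fenestrae, of which 1 and 0 were 2-fold apart, near the 7.14% and 5.24% of all genes that were higher and lower. ESAM had 498 and 559 CPM. CAVIN3 had 709 and 776 CPM. Basement membrane genes, which build the sheet that vessels rest on, were lower in curly endothelial cells, with a median log2 ratio of -0.57 over 12 genes, against -0.33 for the same genes in the other cells and -0.005 over all 2339 genes with at least 100 UMIs. Only SPARC passed 2-fold, with 1820 (straight) and 891 CPM (curly) in the endothelial cells, and 623 and 464 CPM in the other cells. COL4A1 and COL4A2, the collagen IV chains, had 768 and 506 CPM and 409 and 279 CPM, and 5 of the 12 genes had an interval below 0, against 10.2% of all 6961 genes with at least 20 UMIs. LAMA4 and COL15A1 were the other 2 with an interval below 0, besides SPARC, COL4A1 and COL4A2.

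For curly against straight endothelial cells as a whole, 115 of 2339 genes with at least 100 UMIs (4.92%) were at least 2-fold higher in curly and 50 (2.14%) at least 2-fold lower. The split was 90 and 69 genes when keratin and ribosomal protein genes were left out of the totals, and 108 and 76 with the CPM averaged over cells. With no second library per wool type, a ratio of 2 libraries describes these libraries and not the wool types. Over the same 2339 genes the median log2 ratio in the other cells was -0.15. The plot of both ratios shows which genes were apart in the endothelial cells alone and which across the skin.

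**Figure D3:**
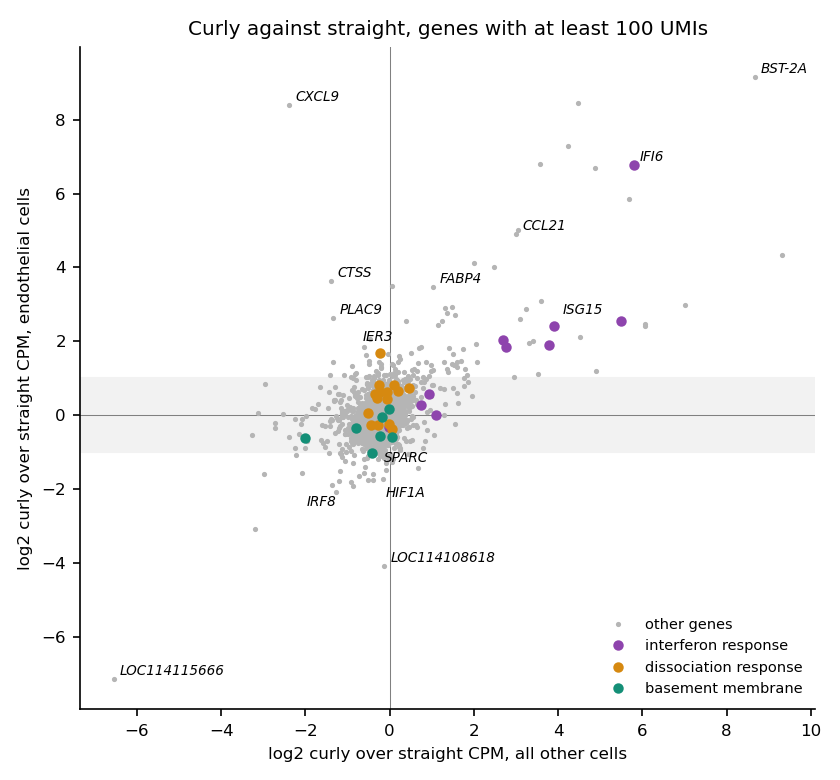
The log2 ratio of curly over straight CPM in endothelial cells (vertical axis) and in all other cells (horizontal axis) for the 2339 genes with at least 100 UMIs in endothelial cells, where 0.5 UMI was added if a sum was 0. The grey band marks less than 2-fold, orange points are early response genes, green points basement membrane genes, the interferon genes (purple) extend to the upper right on both axes, and CXCL9 lies at the upper left, at 8.40 in endothelial cells and -2.38 in other cells.

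By count, interferon response genes had more members past 2-fold between the libraries than any other list. Some shorter lists had a larger share higher in curly endothelial cells. These were the lymphatic list with 3 of 3 genes, the perivascular list with 4 of 5, the hair keratin list with 3 of 4 and the leukocyte list with 4 of 6. The median log2 ratio was 2.78 over the 5 perivascular genes and 1.80 over the 6 leukocyte genes. Of 20 interferon response genes, 17 were in the table and 16 had at least 20 UMIs. Of these 16, 10 were at least 2-fold higher in curly endothelial cells, against 7.14% of all 6961 genes, while 0 were lower. Their median log2 ratio was 1.90. IFI6 had 104 (straight) and 11438 CPM (curly) in the endothelial cells, a log2 ratio of 6.77 (6.53 to 7.03). ISG15, a ubiquitin-like protein induced by interferon, had 260 and 1385 CPM. IFIT1, MX1 and MX2, which block viral RNA or capsids, had 54.6 and 318 CPM, 74.8 and 279 CPM, and 0.780 and 77.2 CPM. The immunoproteasome gene PSMB8 and the peptide transporter TAP1 were level, with log2 ratios of 0.01 (-0.44 to 0.45) and -0.32 (-0.69 to 0.04), and IRF1 had 14.8 and 16.7 CPM.

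These genes were apart in other cells too. In all other cells the same list had a median log2 ratio of 2.73, and its summed level was 534 and 5172 CPM, against 4865 and 20035 CPM in endothelial cells. The fibroblast gate had 983 and 15550 CPM and the perivascular gate 1621 and 14716 CPM. The higher level in curly skin was thus seen in each of these groups, and in both libraries the summed level was highest in the endothelial cells. IFI6 did not follow this order, with 822 and 12462 CPM in the perivascular gate and 352 and 13461.5 CPM in the fibroblast gate. In endothelial cells it had 104 and 11438 CPM. Of the 16 genes, 14 were at least 2-fold over the other cells in both libraries, against 15.2% of all genes. The 16 were chosen by UMIs counted in the endothelial cells, so this share is a description. B2M, the light chain of MHC class I and most of the straight sum, had 3609 and 5389 CPM in endothelial cells against 367 and 707 CPM outside. IFI44 had 7.02 and 39.9 CPM against 0.0529 and 0.403 CPM. The lowest, median and highest summed level in a single straight endothelial cell were 0, 4646 and 12316 CPM, and in a curly one 1809, 19213 and 59425 CPM, so that the cells of the libraries overlapped. For shares of cells, every cell was thinned to 2000 UMIs, and the endothelial cells were those chosen by the full counts. IFI6 was then seen in 15 of 126 straight endothelial cells (11.9%) and in 95 of 96 curly ones (99.0%), and in 12.2% and 75.0% of the other cells. Without thinning it was seen in 30.8% and 100% of endothelial cells. The shallower cells left out numbered 30 and 15 endothelial and 1007 and 1518 other cells. An IFIT1 UMI was found in 12.7% and 37.5% of thinned endothelial cells and in 0.0945% and 4.42% of the other cells. Free RNA in the droplets can give such UMIs, and its part in the IFI6 share was not tested.

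**Figure D4:**
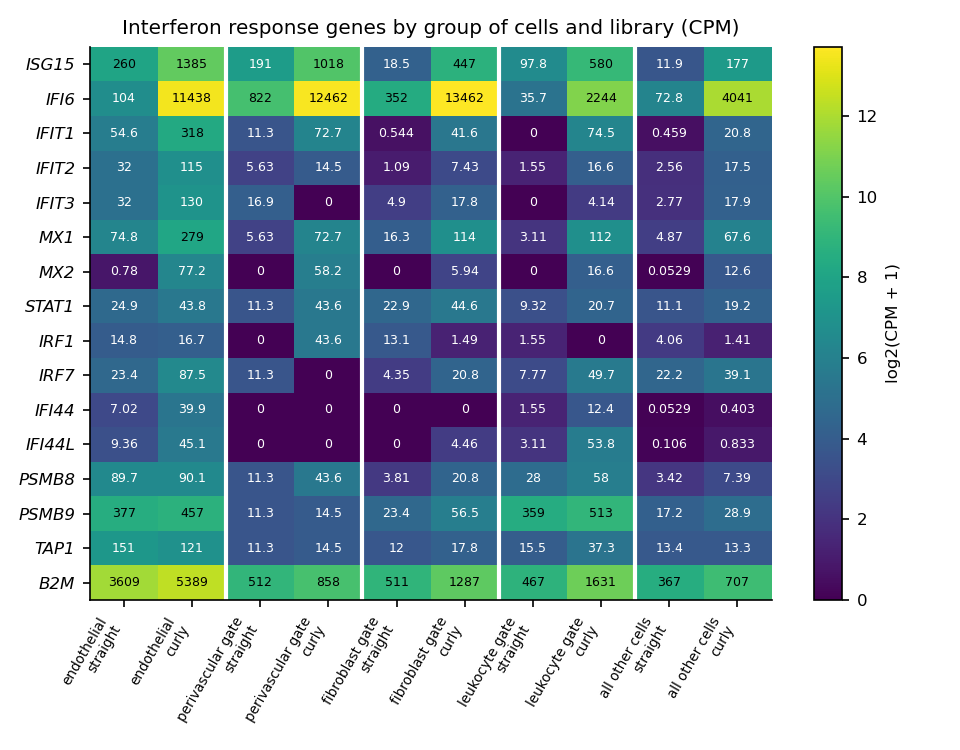
CPM of the 16 interferon response genes with at least 20 UMIs in endothelial cells, in the perivascular, fibroblast and leukocyte gates and in all other cells, each for straight and curly skin. Colour is log2(CPM + 1), the numbers are CPM, and in each group IFI6 is higher in curly skin, for example 11438 against 104 CPM in endothelial cells, while TAP1 in endothelial cells is at 151 (straight) and 121 CPM (curly).

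Of the 10 largest ratios, 6 belonged to genes without a name in the table, LOC114117888, LOC114117806, LOC114117804, LOC101113168, LOC114109518 and LOC114117805. All 6 were higher in curly skin in the other cells too, with log2 ratios of 3.04 to 5.68 there and 5.02 to 8.44 in endothelial cells. All but LOC114109518 had a lower CPM in the endothelial cells than in the other cells of both libraries. Whether reads were shared between similar genes in counting was not tested.

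Outside the interferon list, CXCL9, a chemokine that interferon gamma induces and that attracts T cells, had 1 UMI in straight and 205 UMIs in curly endothelial cells, in 1 and 38 cells. That is 0.780 and 264 CPM, a log2 ratio of 8.40 (5.91 to 13.71). In the other cells the order was the opposite, with 5.08 (straight) and 0.976 CPM (curly), and the perivascular, leukocyte and fibroblast gates had 0 CPM in both. BST-2A, a copy of the tetherin gene that interferon induces, had 0 and 172 UMIs, the latter in 43 cells, and was at least 94.7-fold higher in curly endothelial cells, counting 0 as 3 UMIs over the group. The other cells also differed in BST-2A, with 0.159 and 64.7 CPM. Whether reads that fit more than 1 copy of this gene were split or lost in counting was not tested. XAF1 had 16.4 and 140 CPM and in the other cells 1.18 and 14.3 CPM. SERPING1, the inhibitor of complement C1, had 12.5 and 142 CPM in endothelial cells but 59.2 and 62.0 CPM outside, and the perivascular gate had 180 and 902 CPM.

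FABP4, a fatty acid carrier of capillaries and fat cells, had 33.5 (straight) and 373 CPM (curly) in the endothelial cells, a log2 ratio of 3.48 (3.01 to 3.97). It was seen in 8 and 27 cells, and 1 straight cell held 67.4% of the straight UMIs. In the other cells FABP4 had 66.2 and 136 CPM. FABP5 had 189 and 429 CPM, 0.170-fold and 0.338-fold the level of the other cells. Of the capillary list, TIMP4 was the other gene 2-fold higher in curly skin, with 15.6 and 38.6 CPM. That makes 2 of its 6 genes, against 7.14% of all genes. The median log2 ratio of the 6 was 0.91 in endothelial cells and 0.38 in the other cells. RGCC had 67.8 and 134 CPM, MEOX2 80.3 and 143 CPM, BTNL9 61.6 and 77.2 CPM, and GPIHBP1 195 and 166 CPM. Of the arterial list, HEY1 and MECOM were 2-fold higher in curly skin and 0 of 12 genes lower, with a median log2 ratio of 0.46, against 7.14% of all genes higher and 5.24% lower. With the CPM averaged over cells this median turned to -0.17.

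Some of the largest ratios came from single cells. CTSS, a cathepsin of antigen presenting cells, had 17.9 and 221 CPM, but 1 curly cell held 87.2% of the curly UMIs, and the log2 ratio of 3.63 was 0.79 without the cell richest in it in each library. ACTA2 and TAGLN, genes of contractile cells, had log2 ratios of 2.94 and 2.78, and 1 curly cell held 84.3% and 84.4% of their curly UMIs. Without the richest cells the ratio of TAGLN was 0.43 and that of ACTA2 2.40. All 36 UMIs of TYROBP, a gene of myeloid cells, lay in 1 curly cell. These cells passed the endothelial rule, and doublets were not called.

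Lymphatic genes were found in few cells. At least 2 of PROX1, LYVE1, CCL21 and MMRN1 were seen in 2 of 156 straight and 7 of 111 curly endothelial cells, and in 1 other cell of each library. CCL21, the chemokine that guides leukocytes into lymphatic vessels, had 48 UMIs in 3 straight cells and 876 UMIs in 8 curly cells, which is 37.4 and 1128 CPM. The richest cells held 66.7% of the straight and 41.6% of the curly UMIs. LYVE1, a hyaluronan receptor, had 1 and 26 UMIs, MMRN1 5 and 55 UMIs, and PROX1, the factor that sets lymphatic identity, 1 and 7 UMIs. In the curly cell richest in CCL21, which had 3375 UMIs, 364 were CCL21, 13 were LYVE1, 9 were MMRN1 and 0 were PROX1. Another curly cell had 147 CCL21, 17 MMRN1 and 3 PROX1 UMIs among 6518, with all 6 genes of the rule. The 2 straight cells had 32 and 15 UMIs of CCL21 at a depth of 1023 and 1708 UMIs, and 2 UMIs of MMRN1 each. All CCL21 ratios therefore rest on 3 and 8 cells.

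Early response genes, which dissociation of tissue is known to induce, were higher in curly endothelial cells, with a median log2 ratio of 0.57 over 15 genes and an interval above 0 in 10 of them, against 12.5% of all 6961 genes. The median was 0.36 with cells of 2 or more rule genes and 0.25 with cells thinned to 2000 UMIs and chosen again by the rule. In the other cells the median for these genes was -0.22. FOS had 1917 and 2849 CPM in endothelial cells, and 1752 and 1386.5 CPM in the other cells. JUN had 1146 and 1774 CPM, and IER3 458 and 1465 CPM. IER3 was the only 1 of the 15 past 2-fold, which is near the 7.14% of all genes that were higher. HSPA8, HSP90AA1 and BTG2 were on the other side, with intervals below 0. The summed level was 11108 and 15650 CPM in endothelial cells, and the perivascular gate had 14837 and 21144 CPM. Whether handling of the skins had a part in this was not tested.

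Cell cycle genes were low and lower in curly endothelial cells. Of 15 genes, 9 had at least 20 UMIs, 6 of these were at least 2-fold lower in curly, against 5.24% of all 6961 genes, and 0 were higher. The summed level was 352 and 179 CPM, against 582 and 523 CPM in the other cells. The median log2 ratio of -1.25 rests on few UMIs, with TYMS at 22 and 2, CENPF at 24 and 5, BIRC5 at 18 and 2 and MKI67 at 6 and 0 UMIs, and 1 straight cell held 66.7% of the straight CENPF UMIs. Without the 10 cells over 2% keratin the median was -0.70, with cells of 2 or more rule genes -0.62, and with the CPM averaged over cells -0.70. PCNA, with 197 and 74 UMIs, had 154 and 95.3 CPM.

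Among the genes lower in curly endothelial cells, IRF8, an interferon regulatory factor, had 106 (straight) and 28.3 CPM (curly) in endothelial cells, a log2 ratio of -1.90 (-2.63 to -1.25), and 7.16 and 3.89 CPM in the other cells. HIF1A, the oxygen-responsive factor, had 69.4 and 20.6 CPM, with 31.7 and 24.3 CPM outside. SLC29A1, a nucleoside transporter, had 81.9 and 24.5 CPM, and IL3RA, a receptor of interleukin 3, 68.6 and 20.6 CPM. CCND2, MFGE8, SLCO2A1 and SVIL were between 1.57 and 1.80 lower on the log2 scale. In the other cells these genes were also lower in curly skin, from 0.38 for MFGE8 to 2.08 for SLCO2A1. METTL23 and the ribosomal protein gene RPL37A were lower both in endothelial cells, at 199 and 54.1 CPM and at 5763 and 2031 CPM, and in the other cells, at 155 and 59.5 CPM and at 4955 and 2204 CPM. Some genes without a name in the table were further apart. LOC114108618 had 508 UMIs in 55 straight and 18 UMIs in 16 curly endothelial cells, 396 and 23.2 CPM, against 0.582 and 0.533 CPM in the other cells. LOC114115666 had 116 and 0 UMIs, and 103 and 1.11 CPM in the other cells. LOC101106374 had 383 and 45.1 CPM, a log2 ratio of -3.09, and -3.20 in the other cells. LOC101108163 and LOC101117184 had log2 ratios of -2.08 and -1.78, and -1.27 and -1.21 in the other cells.

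Venous and leukocyte adhesion genes were seen in part of the cells. ACKR1, the chemokine receptor of venules, was found in 13.5% of straight and 16.2% of curly endothelial cells, and had 99.0 and 354 CPM, a log2 ratio of 1.84 (1.53 to 2.15). The other cells had 0.459 and 0.768 CPM. NR2F2, the factor that sets venous identity, had 25.7 and 46.3 CPM. SELP, P-selectin, had 28 and 10 UMIs and SELE, E-selectin, 8 and 13 UMIs. ICAM1, which binds leukocyte integrins, had 286 and 191 CPM against 85.1 and 16.3 CPM in the other cells. CD74, the invariant chain of MHC class II, had 555 and 1205 CPM, and 1 curly cell held 41.6% of its curly UMIs. With cells thinned to 2000 UMIs and chosen again by the rule, which left a smaller set of cells, the CD74 log2 ratio turned to -0.59.

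When the 267 cells were clustered on their own, with each gene centred within its library, 5 clusters resulted, and at most 73.0% of a cluster came from 1 library. Without centring there were 4 clusters, 1 of them with 90 straight and 3 curly cells. A resolution of 1.0 gave 6 clusters, with up to 76.7% from 1 library, and 10 components gave 5, with up to 85.0%, so the cells per library in a cluster depend on these settings. They are given by their leading genes, and since all genes of these cells entered the clustering, the levels are a description. Cluster 0 held 24 straight and 24 curly cells and was led by ACKR1, DQB and CD74, at 1217, 1176 and 4707 CPM against 10.3, 10.3 and 93.5 CPM in the other clusters, followed by CORO1A and PTN. DQB and CD74 belong to MHC class II presentation. VWF was at 865 (straight) and 407 CPM (curly) in the cells of this cluster. Of 6 venous genes, 4 (ACKR1, NR2F2, SELE and EPHB4) had their highest CPM here, as did all 3 lymphatic genes with at least 20 UMIs, against 17.7% of all 2339 genes with at least 100 UMIs. The cluster thus held cells with different vessel genes, and 1 of its cells had 51.4% of its CORO1A UMIs.

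Cluster 1 held 38 straight and 30 curly cells and was led by TMEM100, a target of ALK1 signals, at 244 CPM against 2.63 CPM, with KRT1, SCIN, KRT10 and EGFL8. Of 12 arterial genes, 9 had their highest level here, against 23.3% of all genes. They were the connexins GJA4 and GJA5, the Notch genes HEY1 and NOTCH4, and SEMA3G, BMX, FBLN5, MECOM and UNC5B. GJA5 had 53.9 (straight) and 82.0 CPM (curly) in its cells and at most 1.99 CPM in the straight and 0 CPM in the curly cells of every other cluster. CLDN5 was at 1661 and 2186 CPM, and PLVAP at 438 and 398 CPM, where the other clusters had at least 1867 CPM of PLVAP. The keratins KRT1 and KRT10 are genes of the epidermis. KRT1 was seen in 39.7% of these cells and in 44.7% of the others, and 9 of the 10 endothelial cells with over 2% keratin were in this cluster. What part such cells had in the cluster was not tested.

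Cluster 2 held 21 straight and 20 curly cells, the shallowest, with median depths of 2817 and 3951.5 UMIs. C1QTNF9, CD300LG, BTNL9, GAL and NPR1 led it, CD300LG at 327 against 69.3 CPM and BTNL9, a butyrophilin-like gene, at 250 against 51.3 CPM. FABP4 had 350 (straight) and 996 CPM (curly) here, with 48.2% of its UMIs in 1 cell, and RGCC 121 and 269 CPM. KDR and CD34 were also highest in this cluster, with KDR at 301 and 234 CPM and CD34 at 663 and 516 CPM. Cluster 3, with 46 straight and 27 curly cells, was led by ESM1, STC2, CXCR4, COL13A1 and GPIHBP1. ESM1, a secreted proteoglycan of sprouting tips, had 183 CPM against 16.8 CPM, and CXCR4, the receptor of CXCL12, 204 against 46.1 CPM. Of 9 tip and sprouting genes, 6 (ESM1, ANGPT2, KCNE3, CXCR4, NID2 and DLL4) were highest here, against 14.3% of all genes.

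Cluster 4 held 27 straight and 10 curly cells, 17.3% (11.7 to 24.2%) of the straight and 9.01% (4.41 to 15.9%) of the curly endothelial cells. CSF3, SELP, RND1, IRF8 and SLC41A1 led it, with CSF3, the granulocyte growth factor, at 843 against 128 CPM, 42.2% of it in 1 cell, and RND1 at 709 against 158 CPM. IL6 and CXCL8, an inflammatory cytokine and a neutrophil chemokine, were at 655 and 471 CPM in its straight cells and at 232 and 24.4 CPM in its curly cells. IL6 was higher still in cluster 0, at 692 and 1115 CPM. CXCL8 was at 0 (straight) and 509 CPM (curly) in cluster 0, with all of its UMIs there in 1 cell. CLDN5 was lowest in straight cells of cluster 4, at 34.5 CPM, against 611 CPM in its curly cells. The interferon gene IFI6 was higher in curly than in straight cells of every cluster, from 8621 to 15242 CPM against 30.7 to 192 CPM.

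**Figure D5:**
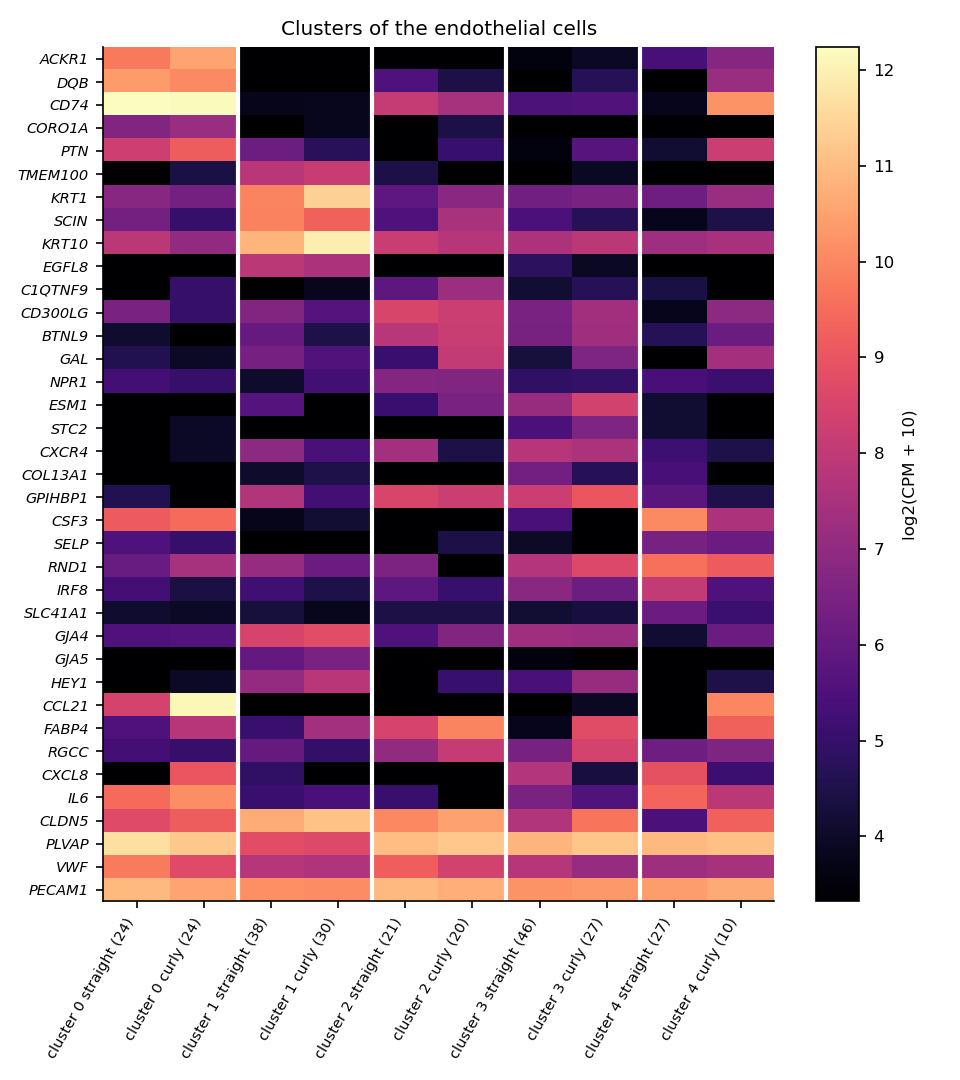
Levels in the 5 clusters of endothelial cells, each divided into straight and curly cells (number of cells in brackets), as log2(CPM + 10). The first 25 rows are the 5 leading genes of each cluster and the remaining rows vessel and cytokine genes, with GJA5 above 50 CPM in cluster 1 alone and PECAM1 between 1091 and 1953 CPM in every cluster.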

How the data were processed

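The authors' deposited table holds 18161 genes by 14037 cells in natural log units, each being ln(1 + UMIs scaled to 10000 in its cell), made after Cell Ranger, for which the submitters' processing notes give version 3.0.2; the genome build was Oar_rambouillet_v1.0. The table holds fewer cells than the study describes and also cells below its stated minimum of genes, since 91 straight and 56 curly endothelial cells had at least 1750 genes. Whole UMI counts were recovered from these values: all 28552149 values above 0 came out whole within 0.01. Counts were summed per library over the cells of each group and expressed in CPM. All intervals were exact (Poisson for CPM, Clopper-Pearson for shares, binomial split for the log2 ratio). Genes were compared at 20 or 100 UMIs or more over both libraries, and called past 2-fold without a test. The gates for other cells need 3 of 6 genes. No doublet caller was run; cells meeting another gate or over 2% keratin were counted instead. Clustering used scanpy 1.11.5 with leidenalg 0.10.2 (1000 variable genes, 15 components, 15 neighbours, resolution 0.5). Leading genes needed a UMI in 20% of a cluster's cells and were ranked by fold with 10 CPM added, a rule chosen after the data were seen. Genes were named as members of the lists, as the 15 with the largest fold over other cells, as the 10 largest and 10 smallest ratios of curly over straight (from 100 UMIs), and as the 5 leading genes of each cluster; genes outside these were named after their values were seen. The members and lists were chosen with earlier results of these data known. The scripts were tested on simulated data. Python 3.11.15, numpy 2.4.6, scipy 1.17.1 and pandas 2.3.3 were used.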

Additional observations from a re-analysis of the deposited data

Results flagged for a closer look

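Genes that were at least 2-fold apart in opposite directions in endothelial cells and in the other cells numbered 6, and none of these differences was tested, since there was 1 library per wool type. CXCL9 had a log2 ratio of curly over straight of 8.40 in endothelial cells and -2.38 in the other cells. For CTSS the ratios were 3.63 and -1.40, but 1 curly cell held 87.2% of its curly UMIs. The endothelial ratio of CTSS was 0.79 without the richest cell of each library. It was -0.22 with cells thinned to 2000 UMIs and chosen again by the rule. PLAC9 had 20.3 (straight) and 126 CPM (curly) in the endothelial cells, a ratio of 2.64, and 28.6 and 11.3 CPM in the other cells. DNAJC12, a co-chaperone, had 65.5 and 139 CPM, a ratio of 1.09, and 12.8 and 6.04 CPM outside, and its ratio was 0.89 without the richest cells. IGFBP3, which binds insulin-like growth factors, had 479 and 1012 CPM, a ratio of 1.08 that was 0.99 without the richest cells, and 936 and 349 CPM in the other cells, with 6385 and 4604 CPM in the fibroblast gate. LOC101114790, which has no name in the table, had 94.3 and 256 CPM, a ratio of 1.44, and 2.84 and 1.12 CPM outside. The part of RNA from other cells in these values was not tested.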

How the results depend on the processing

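No paired analysis was possible because each wool type had 1 pooled library. The count of genes at least 2-fold higher in curly endothelial cells, 115, was 497 with genes from 20 UMIs, 2519 from 1 UMI, 22 with cells thinned to 2000 UMIs, 261 at 1.5-fold and 36 at 4-fold. The count of lower genes, 50, was 365, 1642, 7, 206 and 4 in the same order, 97 with cells of at least 2 of the 6 rule genes and 76 when CPM was averaged over cells. In the thinned setting the rule was applied again to the thinned counts, so a smaller set of cells was compared. It left 315 genes to compare in place of 2339. The share of endothelial cells was 3.19% in straight and 2.06% in curly skin with 2 rule genes, 1.77% and 1.02% with 4, and 1.33% and 0.925% after thinning. The arterial median of 0.46 was -0.17 and the leukocyte adhesion median of 0.59 was 0.10 when CPM was averaged over cells, and the dissociation median of 0.57 was 0.36 with 2 rule genes and 0.25 after thinning. Ratios that turned were CD74 (-0.59), CRABP1 (-2.44) and CTSS (-0.22) after thinning and KRT10 (-0.27) without cells over 2% keratin; apart from the construction of each setting, the cause was not tested. Of 1870 values of 170 named genes, 1592 stayed within the main interval. Leaving out the cell richest in each gene was chosen after seeing the data. Depth limits the low genes, as 3 UMIs are 2.34 and 3.86 CPM.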
